A study of Mus musculus with 20 samples.

Results

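The 10 enzymes of glycolysis named here were followed in the order in which glucose passes through them: Hk1 and Hk2, Gpi1, Pfkl, Aldoa, Pgk1, Pgam1, Eno1, Pkm and Ldha. They were chosen by name as 10 of the 24315 genes listed in each table, and all 10 passed the filter on low values in both cell types. Gene expression was measured by RNA sequencing in LSK cells, the Lin-Sca1+Kit+ marrow fraction that holds stem and early progenitor cells, and in MEP cells, the progenitors of megakaryocytes and red cells. Both fractions came from C57BL/6 mice of 4 genotypes: WT with untargeted genes (3 mice), Dnmt3a-/- (3 mice), Bcor-/- (2 libraries per cell type) and Bcor-/-Dnmt3a-/- (2 mice). Each mouse or pool gave 1 LSK and 1 MEP library, 20 libraries in all. The label of Bcor-/- replicate 1 names 2 mice, so this library may be a pool. The floxed alleles were deleted by Mx1-Cre, an interferon-inducible recombinase that pIpC injection switches on throughout the blood system and in some other tissues. The Bcor allele loses exons 8 to 10. By the study's account Dnmt3a was deleted only in part in Dnmt3a-/- mice, and the Bcor-/-Dnmt3a-/- mice with complete loss were leukemic, so genotype and disease cannot be told apart in that group. Ages were not given in the labels used here.

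Glycolysis turns glucose into pyruvate in the cytosol and yields ATP without oxygen. Its first part spends ATP: hexokinase traps glucose as glucose 6-phosphate, and phosphofructokinase makes the committed step. Its second part earns ATP at phosphoglycerate kinase and pyruvate kinase, and lactate dehydrogenase then returns NAD+ so that the flow can go on. Blood stem cells are known to lean on glycolysis, and the mature red cell, which has no mitochondria, lives on it alone. Many of these genes are textbook targets of the hypoxia factor HIF-1 and of Myc.

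The promoters of Pfkl, Ldha and Pkm are shown because these 3 genes carried the main changes in MEP cells described below. Pfkl and Ldha fell in the Bcor-/-Dnmt3a-/- group, and Pkm rose. Each sequence runs from 250 bases before to 50 bases after the first RefSeq start site in the table, on the gene's own strand and in build GRCm38.p6, which is not the build of the expression tables. Pfkl is at chr10:78009758-78010057 (minus strand), Ldha at chr7:46845554-46845853 (plus strand) and Pkm at chr9:59656326-59656625 (plus strand). Capitals mark ACGTG or GCGTG on either strand, the core letters bound by HIF factors. The Ldha window held 7 such matches, the Pfkl window 1 and the Pkm window 0. Each CACGTG reads ACGTG on both strands and was counted on each, so Ldha has fewer marked stretches than matches.
Pfkl: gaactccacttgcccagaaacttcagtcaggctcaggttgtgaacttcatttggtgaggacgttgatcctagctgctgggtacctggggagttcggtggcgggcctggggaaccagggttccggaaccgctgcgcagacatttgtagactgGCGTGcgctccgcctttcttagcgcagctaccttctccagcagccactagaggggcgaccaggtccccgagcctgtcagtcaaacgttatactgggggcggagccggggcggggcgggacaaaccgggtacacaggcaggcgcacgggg
Ldha: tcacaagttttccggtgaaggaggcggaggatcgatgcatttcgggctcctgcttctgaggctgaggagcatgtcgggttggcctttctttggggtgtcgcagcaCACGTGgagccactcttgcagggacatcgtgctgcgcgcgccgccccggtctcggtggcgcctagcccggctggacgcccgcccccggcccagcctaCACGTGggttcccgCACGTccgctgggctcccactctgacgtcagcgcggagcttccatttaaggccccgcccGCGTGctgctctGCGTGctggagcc
Pkm: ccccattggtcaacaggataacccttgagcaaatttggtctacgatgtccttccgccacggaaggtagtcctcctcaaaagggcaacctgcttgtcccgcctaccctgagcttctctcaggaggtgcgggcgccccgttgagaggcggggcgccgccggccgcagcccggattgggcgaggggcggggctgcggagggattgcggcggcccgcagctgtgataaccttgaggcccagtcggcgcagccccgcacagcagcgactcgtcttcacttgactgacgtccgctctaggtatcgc
All 10 enzymes matched a RefSeq promoter. ACGTG was found in 4 of the 10 windows and in 19.6% of the 32851 promoters of the same length, and GCGTG in 4 of 10 and in 32.4% of promoters. The E-box CACGTG, which contains ACGTG and is the letter pattern of Myc, was found in 1 of 10 windows against 7.15% of promoters. The GATA letters AGATAA were found in 0 of 10 windows (11.2% of promoters) and TGATAA in 2 of 10 (9.05%). The CACCC letters CCACACCC were found in 1 of 10 (3.56%), and the looser CCNCNCCC, which includes them, in 9 of 10 (49.5%). All were searched on both strands. Matches of this kind describe letters only.

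The libraries of a group were close to each other except in the Bcor-/-Dnmt3a-/- group. Correlations between replicates over all tested genes were 0.973 or higher in the LSK groups and 0.971 or higher in the MEP groups, against 0.849 and 0.815 for the Bcor-/-Dnmt3a-/- pair. Read depth is not given with FPKM, but steps between low values put the depths within 0.79 to 1.32 times WT replicate 1 in LSK and 1 to 1.6 times in MEP. The targeted genes kept a gene-level FPKM. Bcor in LSK was 29.5 to 32.4 FPKM in WT, 22.4 and 23.2 in Bcor-/-, then 24.0 and 37.4 in Bcor-/-Dnmt3a-/-. Dnmt3a was 16.1 to 19.8 in WT against 10.4 and 10.9 in Bcor-/-Dnmt3a-/-. In Dnmt3a-/- LSK, Dnmt3a was 16.9, 14.0 and 11.3 and overlapped WT. In MEP, Bcor was 21.3 to 26.9 in WT, 19.5 and 22.4 in Bcor-/-, and 19.6 and 26.7 in the double knockout, and Dnmt3a was 5.49 to 6.64 in WT, 5.40, 2.97 and 2.56 in Dnmt3a-/-, and 6.85 and 3.44 in the double knockout. Gene-level FPKM of Bcor also counts exons outside the deleted ones, so its values do not check the labels. By reverse transcription and PCR, the study found no detectable Bcor mRNA in Bcor-/- LSK cells. It also reports loss of Bcor protein in lineage-negative marrow cells. Markers of other blood cells moved with the groups. In LSK cells, the 24 erythroid markers summed to 514 to 695 FPKM in WT, 1031 and 1570 in Bcor-/-, then 8032 and 25429 in Bcor-/-Dnmt3a-/- (23 of the 23 tested were called higher by the rule given below, where 15% of all tested genes were). The 12 stem markers summed to 1451 to 1674 in WT and to 405 and 491 in Bcor-/-Dnmt3a-/-, with Cd34 at 548 to 649.7 against 5.87 and 37.3, and Kit at 148 to 174 against 47.7 and 19.4, while Ly6a, which encodes Sca-1, was 59.8 to 70.7 against 63.5 and 220.2. B cell markers in LSK summed to 46.9 to 118 in WT against 3972 and 1389.8 in Bcor-/-Dnmt3a-/-. Of 10 T and NK cell markers 9 were called higher and 1 lower. The megakaryocyte markers summed to 174 to 214 in WT against 22.2 and 77.2, with 6 of 11 tested called lower (13.3% of all tested genes). Of the genes of the 2 sorting markers of LSK cells, Kit was thus lower in both Bcor-/-Dnmt3a-/- LSK libraries than in all WT libraries, and Ly6a was not. In bulk samples, fewer cells of a type and less RNA per cell cannot be told apart, which holds for every comparison below.

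In WT LSK cells the last enzymes of the pathway were the most abundant. FPKM is a level per transcript length, so genes can be ranked by it. Ldha, which turns pyruvate into lactate, led with 377 ± 15.3 FPKM (SD, n = 3), followed by Pkm, pyruvate kinase of non-erythroid tissues, with 359 ± 7.91. Aldoa, which splits the 6-carbon sugar, had 259 ± 12.9, and Gpi1, which turns glucose 6-phosphate into fructose 6-phosphate, 191 ± 4.52. Hk1 stood at 75.1 ± 3.43 and Pfkl, the liver-type phosphofructokinase, at 44.1 ± 3.19. Pgk1 was lower, at 19.1 ± 0.879. Pgam1 (15.8 ± 1.92) and Hk2 (14.7 ± 3.56) overlapped in range, and Eno1 was last at 5.66 ± 0.429. Every other neighbouring pair in this order was separate in all 3 WT libraries.

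The order differed in WT MEP cells. Ldha alone made up 51.7% of the summed level of the 10 enzymes (629.9 ± 30.1 FPKM, n = 3), against 27.7% in LSK. Aldoa (245 ± 19.1), Hk1 (148 ± 5.04) and Gpi1 (97.2 ± 4.72) followed. Pkm, second in LSK, stood behind 4 other enzymes here at 36.2 ± 16.5 FPKM and overlapped Pfkl (34.1 ± 0.904). Pgk1 (12.3 ± 2.04), Eno1 (8.31 ± 4.43), Pgam1 (4.17 ± 1.52) and Hk2 (2.39 ± 1.09) closed the order, each overlapping its neighbour. The tables of the 2 cell types were made separately, so these levels stand side by side and were not tested. Within WT MEP cells, Pkm was lowest in replicate 2 (20.8), then replicate 1 (34.3) and replicate 3 (53.7). Hk2 and Pgam1 took the same order, as did the summed stem markers (145, 229 and 329 FPKM). The sums of megakaryocyte (108, 313 and 388), monocyte and macrophage (41.5, 64.5 and 77.5) and T and NK cell markers (49.7, 67.9 and 78.5) also took it. The sums of erythroid (8655, 7096 and 5934), B cell (214, 104 and 35.4) and proliferation genes (3472, 2793 and 2702) ran the other way. The part of any of these groups in Pkm, Hk2 and Pgam1 was not tested.

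The low values of 3 enzymes need care. In the GRCm38 annotation, 68% of the 50-base stretches of Pgk1 transcripts, 49.5% of those of Eno1 and 41.5% of those of Pgam1 also occur in other genes, most of them annotated pseudogenes. The shares were 24.5% for Gpi1, 23.7% for Pkm, 10.4% for Ldha, 6.57% for Aldoa, 1.64% for Hk1, 0.0532% for Pfkl and 0% for Hk2. How reads from shared stretches were divided is not given in the sources used here. Gapdh, which every cell uses and whose transcripts share 58.4% of their stretches, was listed at 0.295 to 1.98 FPKM in all 20 libraries. Levels and changes of Pgk1, Eno1 and Pgam1 are therefore uncertain. Exons of Pkm and Gpi1 also overlap other annotated genes, Gm49759 on the same strand over 15.3% of Pkm exon bases and Gm26762 on the opposite strand over 11.5% of Gpi1 exon bases.

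**Figure D1:**
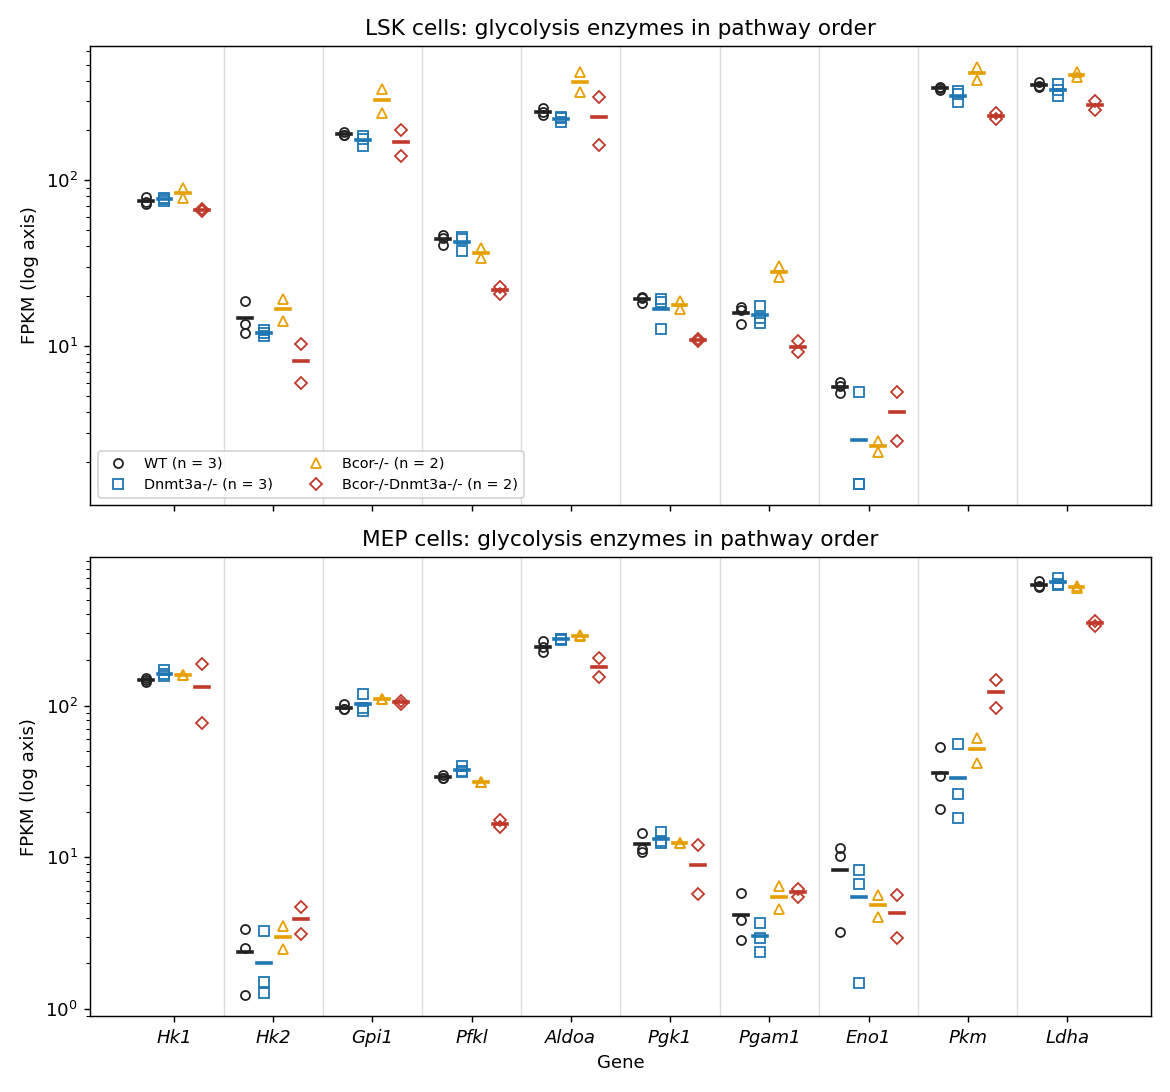
FPKM on a log axis of the 10 enzymes in pathway order, in LSK cells (top) and MEP cells (bottom). Open symbols are libraries, by genotype, and bars are group means (n = 3, 3, 2 and 2). Pfkl is lowest in Bcor-/-Dnmt3a-/- libraries of both cell types (20.6 and 22.8 in LSK, 17.6 and 15.9 in MEP), and Pkm is highest in them in MEP cells (148 and 97.3).

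The first comparison asked how the leukemic Bcor-/-Dnmt3a-/- LSK cells differed from WT LSK cells. Hk2, Pfkl, Pgk1 and Pgam1 fell, no enzyme rose, 6 of the 10 were not called, and the summed level of the 10 was 956 and 1170.0 FPKM against 1326 to 1393 in WT. A gene was called at an unadjusted limma p under 0.05 and a fold change above 1.5, on the log2(FPKM + 1) scale that all fold changes here use and that understates changes of low genes. By this rule 4 of 10 enzymes were called, all lower, where 28.3% of all 11952 tested genes were called and 13.3% were called lower. The same 4 passed with an adjusted p under 0.05, as did 23.7% of tested genes. All 10 log2 fold changes were below 0, as were those of 48.6% of tested genes, and the median was -0.51 for the enzymes and 0.02 for all tested genes. In 7 of 10 enzymes both Bcor-/-Dnmt3a-/- libraries lay below all WT libraries, against 24.1% of tested genes.

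Of the glucose-trapping enzymes, Hk2, the inducible hexokinase, was 18.7, 11.9 and 13.5 FPKM in the WT libraries and 6.01 and 10.3 in Bcor-/-Dnmt3a-/-. Both double knockout libraries were below WT, and Hk2 fell by 0.80 ± 0.24 on the log2 scale (SE, 1.74-fold, adjusted p = 0.037). Without Bcor-/-Dnmt3a-/- replicate 1 the log2 change was -0.45 and lost the call (adjusted p = 0.15). Hk1, the constitutive hexokinase, was 72.1, 74.3 and 78.8 in WT against 65.3 and 66.9 in Bcor-/-Dnmt3a-/-, which gave a log2 fold change of -0.18 ± 0.10 that did not pass (adjusted p = 0.20).

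Pfkl, the committed step, gave the clearest change. It had 45.0, 40.6 and 46.8 FPKM in the WT LSK libraries and 20.6 and 22.8 in Bcor-/-Dnmt3a-/-. The groups were far apart, and Pfkl fell by 0.99 ± 0.13 (1.99-fold, adjusted p = 0.00058). Leaving out any library kept the change between -1.06 and -0.92. The enzymes on either side of it did not pass. Gpi1 was 188, 196 and 188 in WT against 140.2 and 202 in Bcor-/-Dnmt3a-/- (log2 fold change -0.18 ± 0.18). Aldoa was 258, 272 and 247 in WT against 164 and 319.7 in Bcor-/-Dnmt3a-/- (-0.17 ± 0.24). In both genes the 2 double knockout libraries fell on opposite sides of WT.

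In the second part of the pathway, Pgk1, which earns ATP, was 19.9, 19.4 and 18.2 FPKM in WT against 11.0 and 10.7 in Bcor-/-Dnmt3a-/-, a fall of 0.76 ± 0.17 (adjusted p = 0.0099). Pgam1, which moves the phosphate of 3-phosphoglycerate, was 17.1, 16.6 and 13.6 in WT against 9.17 and 10.7 in Bcor-/-Dnmt3a-/-, a fall of 0.62 ± 0.15 (adjusted p = 0.016). Both groups were separate for both genes. Without Bcor-/-Dnmt3a-/- replicate 1 the Pgam1 change was -0.52 and under the fold threshold, and it was also under it without WT replicate 1 (-0.56) or WT replicate 2 (-0.58). Eno1, which makes phosphoenolpyruvate, was 6.05, 5.20 and 5.72 in WT against 2.67 and 5.31 in Bcor-/-Dnmt3a-/- and overlapped (log2 fold change -0.47 ± 0.40).

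The 2 most abundant enzymes were lower by less than the fold threshold. Pkm was 364, 363 and 349.5 FPKM in WT against 234 and 256 in Bcor-/-Dnmt3a-/- (log2 fold change -0.55 ± 0.12, adjusted p = 0.010). Ldha was 371, 394 and 366 in WT against 303 and 265 in Bcor-/-Dnmt3a-/- (-0.41 ± 0.12, adjusted p = 0.032). For both, all WT libraries lay above both double knockout libraries. The count of 4 was 2 without Bcor-/-Dnmt3a-/- replicate 1 and 6 without replicate 2. When each genotype was given its own variance, Pfkl kept its call (adjusted p = 0.038), and Hk2, Pgk1 and Pgam1 lost theirs (adjusted p = 0.32, 0.25 and 0.29).

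The same genotypes were compared in MEP cells. Pkm rose in Bcor-/-Dnmt3a-/- MEP cells, Pfkl and Ldha fell, and the summed level was 894 and 969 FPKM against 1186 to 1258 in WT. In all, 3 of 10 enzymes were called, against 30.9% of the 10933 tested genes (18.5% called higher and 12.4% lower), so the share of enzymes called was near the background. The median log2 fold change was -0.37 for the enzymes and 0.02 for all tested genes. The 3 calls also passed with an adjusted p, as did 25.2% of tested genes.

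Pfkl was 33.5, 35.1 and 33.6 FPKM in WT MEP libraries and 17.6 and 15.9 in Bcor-/-Dnmt3a-/-, a fall of 0.99 ± 0.09 (1.98-fold, adjusted p = 0.00044). Ldha was 607, 664 and 618 in WT against 362 and 337 in Bcor-/-Dnmt3a-/-, a fall of 0.85 ± 0.10 (1.80-fold, adjusted p = 0.00078). The groups were well separated for both. Pkm was 34.3, 20.8 and 53.7 in WT against 148 and 97.3 in Bcor-/-Dnmt3a-/-, a rise of 1.80 ± 0.50 (3.48-fold, adjusted p = 0.026). Both double knockout libraries exceeded every other MEP library, of which the highest held 61.5. The Pkm call was lost when each genotype was given its own variance (adjusted p = 0.46), and the Pfkl and Ldha calls were kept on the unadjusted p (adjusted p = 0.061 and 0.10).

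Of the remaining enzymes in MEP cells, Aldoa was 244, 265 and 227 FPKM in WT against 155 and 208 in Bcor-/-Dnmt3a-/- (log2 fold change -0.45 ± 0.13, adjusted p = 0.031, under the fold threshold). Hk1 divided the double knockout pair: it was 148, 153 and 143 in WT, 76.5 in Bcor-/-Dnmt3a-/- replicate 1 and 189 in replicate 2. These 2 libraries lay on either side of WT. Without replicate 2 the log2 change of Hk1 was -0.94 and was called. Pgk1 divided them the other way, with 12.1 in replicate 1 and 5.77 in replicate 2 against 14.6, 11.3 and 10.8 in WT, and was called without replicate 1 (-0.96). Gpi1 was 94.5, 94.5 and 103 in WT against 108 and 103 in Bcor-/-Dnmt3a-/-, and its log2 change of 0.12 ± 0.12 turned to -0.04 with median centring. Hk2 (log2 fold change 0.57 ± 0.37), Pgam1 (0.45 ± 0.27) and Eno1 (-0.71 ± 0.63) did not pass.

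The Bcor-/-Dnmt3a-/- MEP libraries differed from WT, and from each other, in markers of other cells. The 13 granulocyte markers summed to 323 to 792 FPKM in WT and to 7029 and 16011 in Bcor-/-Dnmt3a-/- (9 of 13 called higher). The 24 erythroid markers summed to 5934 to 8655 in WT, 7305 in replicate 1 and 106605 in replicate 2. B cell markers summed to 35.4 to 214 in WT, 3231 in replicate 1 and 159 in replicate 2. The monocyte and macrophage markers summed to 41.5 to 77.5 in WT, 1190.1 in replicate 1 and 959 in replicate 2 (10 of 12 tested called higher). Pkm was also higher in replicate 1, as were the sums of B cell and stem markers (359 and 148). The granulocyte, erythroid, megakaryocyte, T and NK cell and proliferation sums ran the other way. An order of 2 libraries says little. Of the 8 T and NK cell markers tested 7 were called higher. Beside all these marker counts, 18.5% of all tested genes were called higher. The study's MEP gate takes lineage-negative, Kit+ cells, which should leave out mature cells of these types. The part of such cells in the values of Pkm, Hk1 and the other enzymes was not tested. The 12 megakaryocyte markers, of a lineage of MEP cells, summed to 108 to 388 FPKM in WT and to 30.1 and 86.9 in Bcor-/-Dnmt3a-/-. Of 11 tested 5 were called lower, against 12.4% of tested genes, and their part was not tested either.

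Whether the Bcor-/-Dnmt3a-/- effect differed between LSK and MEP cells was tested on the LSK minus MEP difference of each mouse. Hk2, Pgam1 and Pkm were called, 3 of 10 enzymes, against 28% of the 10773 genes tested in both cell types. The log2 effect on Pkm was -0.55 in LSK and 1.80 in MEP, a difference of -2.35 ± 0.64 (adjusted p = 0.034). That on Hk2 was -0.80 and 0.57, a difference of -1.37 ± 0.40 (adjusted p = 0.040). That on Pgam1 was -0.62 and 0.45, and its difference of -1.06 ± 0.39 missed the adjusted threshold (adjusted p = 0.079), which 18.6% of tested genes passed. All 3 effects were lower in LSK. Pfkl was the opposite case: its effects of -0.99 and -0.99 gave a difference of -0.0024 ± 0.18. Ldha had a difference of 0.44 ± 0.13 (adjusted p = 0.043), under the fold threshold. The other differences were 0.12 ± 0.30 for Hk1, -0.30 ± 0.24 for Gpi1, 0.27 ± 0.18 for Aldoa, -0.28 ± 0.30 for Pgk1 and 0.25 ± 0.91 for Eno1, and none of them passed. With 1 variance per genotype none of the 10 differences was called.

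**Figure D2:**
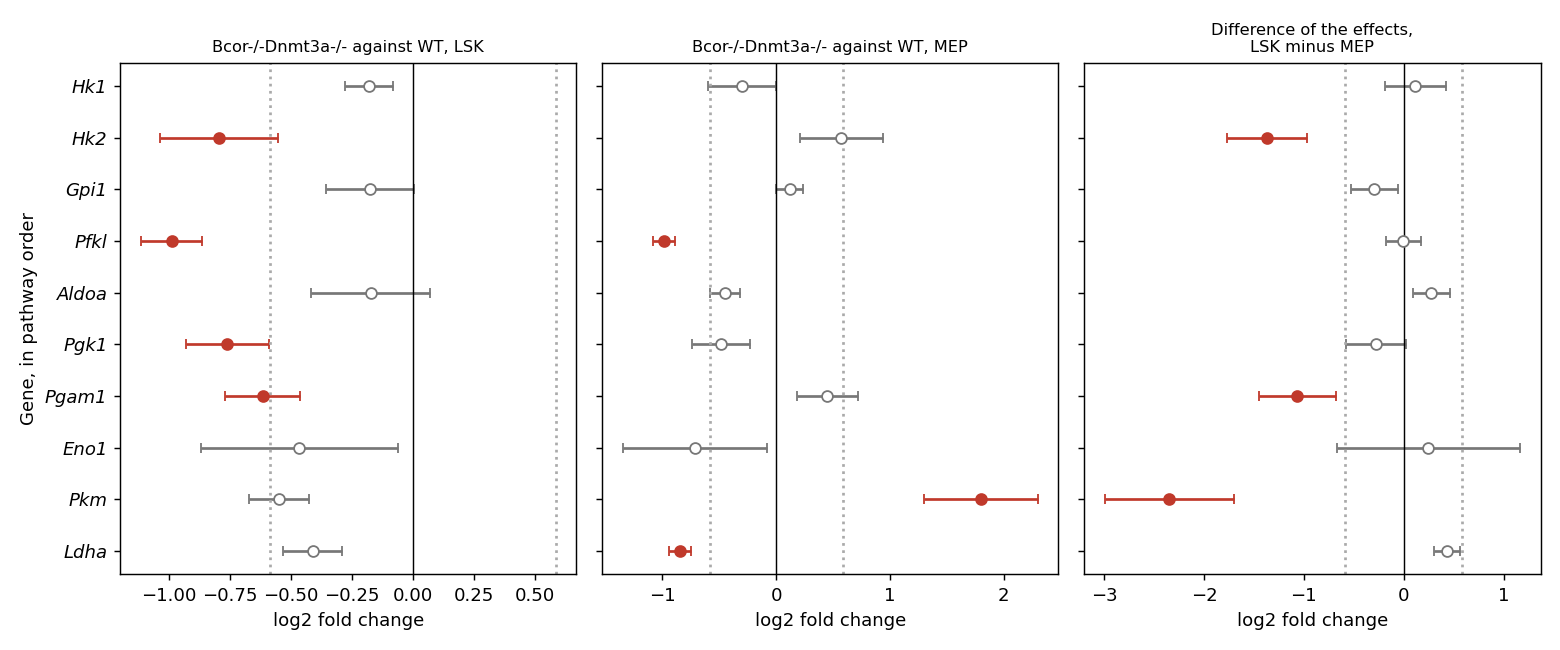
Log2 fold change (FPKM + 1) of the 10 enzymes in Bcor-/-Dnmt3a-/- against WT in LSK cells (left) and MEP cells (middle), and the difference of both effects (right), each with its own horizontal scale. Bars are SE from limma, filled red points were called, and dotted lines mark a fold change of 1.5. Pfkl falls by 0.99 in both cell types, while Pkm stands at -0.55 in LSK and 1.80 in MEP.

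The loss of Bcor alone was compared with WT next. In Bcor-/- LSK cells, Gpi1, Aldoa and Pgam1 rose and Eno1 fell, and the summed level of the 10 enzymes was 1594 and 1933 FPKM against 1326 to 1393 in WT. The 4 calls of 10 stood against 13.2% of the 11952 tested genes. The median log2 fold change was 0.19 for the enzymes and -0.01 for all genes, with 0.054 and -0.02 after quantile normalization and 0.046 and -0.15 after rescaling to TPM. Pgam1 was 26.0 and 30.3 FPKM in Bcor-/- against 13.6 to 17.1 in WT, a rise of 0.80 ± 0.15 (1.74-fold, adjusted p = 0.024), and was the 1 enzyme to pass with an adjusted p (5.77% of tested genes). Gpi1 was 256 and 357 (0.66 ± 0.18, adjusted p = 0.061) and Aldoa 341 and 448 (0.59 ± 0.24, adjusted p = 0.17). Both libraries exceeded all WT libraries in all 3 genes. Replicate 2 was the higher in each. Without it Gpi1 and Aldoa were no longer called (0.43 and 0.40), and Aldoa was also not called without any 1 of the WT libraries (0.56 to 0.63). Eno1 was 2.68 and 2.29 against 5.20 to 6.05 in WT (-0.93 ± 0.40, adjusted p = 0.19), and lost its call without either Bcor-/- library (-1.01 and -0.85). Over 22 alternatives the call was lost in 11 for Eno1, 12 for Aldoa, 5 for Gpi1 and 1 for Pgam1.

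The other enzymes of Bcor-/- LSK cells did not pass. Pkm was 403 and 484 FPKM (log2 fold change 0.30 ± 0.12, under the fold threshold) and Ldha 418 and 449 (0.20 ± 0.12, and -0.05 after quantile normalization), in each case above all WT libraries. Pfkl was 39.1 and 34.0, below all WT libraries (-0.27 ± 0.13). Hk1 was 77.9 and 89.9, Hk2 14.2 and 19.3, and Pgk1 16.8 and 18.7, all overlapping WT. The 13 granulocyte markers summed to 18085 and 25771 in Bcor-/- LSK against 3575 to 13661 in WT, with replicate 2 the higher. Of the 13, 5 were called higher and 5 had a log2 fold change below 0. The Bcor-/- sums were mostly Mpo (4710.0 and 8426 FPKM), Elane, Prtn3 and Ctsg, and the highest WT sum, that of replicate 2, mostly S100a8 (4389) and S100a9 (3736). Besides, 14 of 23 tested erythroid markers and 7 of 20 proliferation genes were called higher, where 7.2% of tested genes were. Of the 12 stem markers 5 were called lower, against 6.03% of tested genes. Their sums were 1079 and 742 FPKM in Bcor-/- LSK against 1451 to 1674 in WT. The part of all these groups in the enzyme values was not tested.

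Loss of Dnmt3a on top of Bcor was read from Bcor-/-Dnmt3a-/- against Bcor-/-, which shares the double knockout libraries with the first comparison and the Bcor-/- libraries with the last. A high Bcor-/- value raises the one change and lowers the other. In LSK cells 8 of 10 enzymes fell, against 30.6% of tested genes called and 14.8% called lower. Pgam1 fell most, from 26.0 and 30.3 FPKM to 9.17 and 10.7 (by 1.42 ± 0.17 on the log2 scale, 2.67-fold, adjusted p = 0.00063). Hk2 fell by 0.98 ± 0.27, Pkm by 0.85 ± 0.14, Gpi1 by 0.84 ± 0.20, Aldoa by 0.77 ± 0.27, Pfkl by 0.72 ± 0.14, Pgk1 by 0.66 ± 0.19 and Ldha by 0.61 ± 0.13. All but Aldoa of these (adjusted p = 0.057) passed with an adjusted p, against 25.2% of tested genes. When single libraries were left out, the Aldoa change ranged from -1.24 to -0.29. The smallest changes of Gpi1 (-0.58), Pgk1 (-0.58) and Ldha (-0.51) were, like that of Aldoa, under the fold threshold. Hk1 (-0.34 ± 0.11) was under the fold threshold, and Eno1 (0.47 ± 0.44) did not pass. The median was -0.74 for the enzymes and -0.03 for all tested genes. The count was 5 without Bcor-/- replicate 2. Cell markers moved in this comparison too, where 15.8% of tested genes were called higher and 14.8% lower. Of 20 proliferation genes 8 were called lower and 1 higher, and of 13 granulocyte markers 5 lower and 5 higher. Called higher were 20 of 23 erythroid, 8 of 10 B cell and 9 of 10 T and NK cell markers. Called lower were 10 of 12 stem and 7 of 11 megakaryocyte markers. The part of these groups in the enzyme values was not tested.

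In MEP cells Bcor loss alone left no enzyme called. Counts were 0 of 10 in Bcor-/- against WT, where limma called 2.76% of the 10933 genes, and no enzyme had an unadjusted p under 0.05, against 5.46% of genes. The nearest values were Gpi1, with 110.5 and 111.6 FPKM against 94.5 to 103 in WT (0.19 ± 0.12), and Aldoa, with 287 and 291 against 227 to 265 (0.24 ± 0.13). The log2 fold changes of the rest were 0.11 ± 0.30 for Hk1, 0.28 ± 0.37 for Hk2, -0.11 ± 0.09 for Pfkl, 0.037 ± 0.26 for Pgk1, 0.36 ± 0.27 for Pgam1, -0.54 ± 0.63 for Eno1, 0.57 ± 0.50 for Pkm and -0.062 ± 0.10 for Ldha. Against Bcor-/-, the Bcor-/-Dnmt3a-/- MEP cells had 3 of 10 enzymes called, all lower, where 27.9% of genes were called and 11.3% were called lower. They were Pfkl (31.6 and 31.5 to 17.6 and 15.9 FPKM, a fall of 0.88 ± 0.10), Ldha (611 and 595 to 362 and 337, a fall of 0.79 ± 0.11) and Aldoa (287 and 291 to 155 and 208, a fall of 0.69 ± 0.14). When single libraries were left out, the Aldoa change ranged from -0.90 to -0.47, the latter under the fold threshold. Pkm, at 61.5 and 41.6 in Bcor-/-, had a log2 fold change of 1.23 ± 0.55, with both Bcor-/-Dnmt3a-/- libraries above both Bcor-/- libraries. In limma fitted across all genes its unadjusted p was 0.053, just over the threshold, and its adjusted p was 0.13. It was called in 7 of 22 alternatives. The other enzymes did not pass, with log2 fold changes of -0.41 ± 0.33 for Hk1, 0.29 ± 0.40 for Hk2, -0.072 ± 0.13 for Gpi1, -0.52 ± 0.28 for Pgk1, 0.091 ± 0.29 for Pgam1 and -0.18 ± 0.69 for Eno1, of which those of Hk2 and Pgam1 turned negative with quantile normalization.

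**Figure D3:**
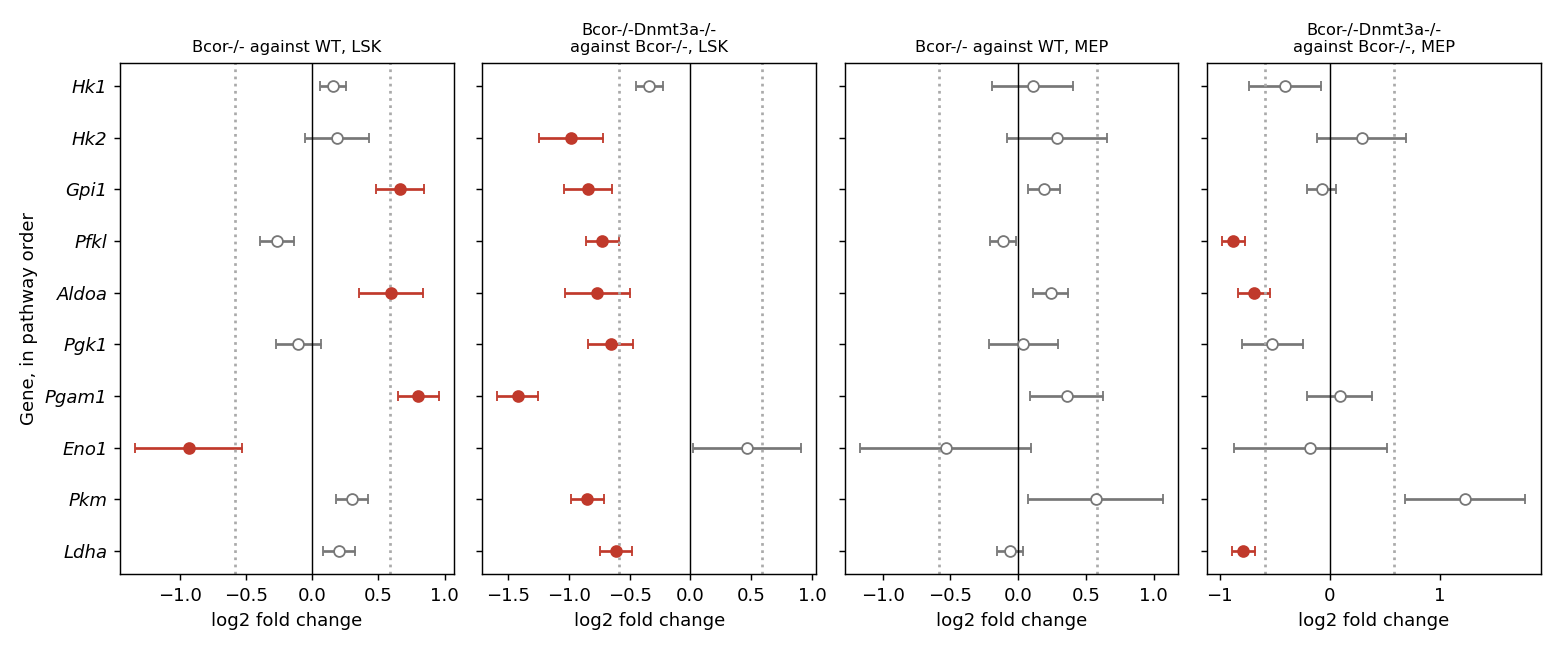
Log2 fold change (FPKM + 1) of the 10 enzymes in Bcor-/- against WT and in Bcor-/-Dnmt3a-/- against Bcor-/-, in LSK cells (left pair) and MEP cells (right pair), each with its own horizontal scale. Bars are SE, filled red points were called, and dotted lines mark a fold change of 1.5. In LSK cells Pgam1 stands at 0.80 in the first comparison and -1.42 in the second, which share the Bcor-/- libraries with opposite sign.

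Loss of Dnmt3a alone was followed by little change. In Dnmt3a-/- LSK cells 1 of 10 enzymes was called, where 0.443% of genes were, and in MEP cells 0 of 10, where 0.412% were. In MEP cells no enzyme had an unadjusted limma p under 0.05, against 2.06% of genes, and no gene at all passed with an adjusted p in either cell type. The 1 call was Eno1 in LSK cells, with 1.47, 1.47 and 5.24 FPKM against 5.20 to 6.05 in WT (log2 fold change -0.98 ± 0.36, adjusted p = 1.0). Its groups overlapped through replicate 3. In the 2 low libraries, Eno1b, a near-identical retrogene copy, was listed at 13.6 and 11.4 FPKM, and it was listed at 0 in replicate 3 and at 0 to 0.137 in WT. With both genes added, an alternative chosen after seeing the data, the Eno1 change turned to 0.74 in LSK and from -0.58 to 0.50 in MEP, neither called. Whether reads of Eno1 were assigned to Eno1b in these libraries was not tested. The largest log2 fold change of any of the other 9 enzymes in Dnmt3a-/- cells was that of Pgam1 in MEP (-0.34 ± 0.24), and Pgam1 in LSK was at -0.037. In LSK the log2 fold changes were 0.036 for Hk1, -0.26 for Hk2, -0.13 for Gpi1, -0.064 for Pfkl, -0.14 for Aldoa, -0.20 for Pgk1, -0.14 for Pkm and -0.10 for Ldha. In MEP they were 0.14 for Hk1, -0.17 for Hk2, 0.064 for Gpi1, 0.15 for Pfkl, 0.16 for Aldoa, 0.12 for Pgk1, -0.16 for Pkm and 0.049 for Ldha. None of these passed.

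Several steps have more than 1 isozyme, and the share of each member in the summed FPKM of its step does not depend on the scaling of a library. In WT LSK cells Pkm made up 98.8% to 99.5% of Pkm plus Pklr, the pyruvate kinase of liver and red cells. In WT MEP cells it made up 15.8%, 7.98% and 30.1%. In Bcor-/- LSK the share was 96.2% and 94.0%, also below every WT library (-4.01 points, exact permutation p = 0.10). Among Bcor-/-Dnmt3a-/- libraries the share was 88.2% and 93.8% in LSK and 71.2% and 52.6% in MEP, so that both cell types moved from their WT values in opposite directions, a change of -8.16 points in LSK and 44.0 points in MEP. No WT library overlapped in either. The exact two-sided permutation p was 0.10 in each, the smallest that 2 against 3 libraries allow. Pklr itself was 1.99 to 4.51 FPKM in WT LSK, with 15.7 and 30.8 for Bcor-/- and 31.3 and 17.0 for Bcor-/-Dnmt3a-/- (log2 fold change against WT 2.60 ± 0.36, adjusted p = 0.00092). In MEP it was 125 to 239.5 in WT against 59.7 and 87.6 in Bcor-/-Dnmt3a-/- (-1.27 ± 0.27, adjusted p = 0.0088).

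The phosphofructokinase step also shifted. Pfkl made up 46.7% to 49.7% of Pfkl, Pfkm and Pfkp in WT LSK libraries, 43.5% and 40.8% in Bcor-/-, then 30.1% and 33.3% in Bcor-/-Dnmt3a-/- (exact permutation p = 0.10, the smallest possible). In MEP the shares were 25.8% to 30.2% in WT and 25.3% and 18.2% in Bcor-/-Dnmt3a-/- (exact permutation p = 0.10). The muscle type Pfkm was the main form in MEP, at 72.0 to 96.5 FPKM in WT, and also fell there, to 42.7 and 58.0 (log2 fold change -0.74 ± 0.18), while the platelet type Pfkp rose from 4.76 to 7.22 in WT to 9.24 and 13.5 (0.84 ± 0.25). For lactate dehydrogenase, Ldha held 91.3% to 91.6% of the step in WT LSK cells and 99.6% in WT MEP cells. In Bcor-/-Dnmt3a-/- LSK cells the pair split, at 99.2% in replicate 1 and 86.1% in replicate 2, with Ldhb at 2.54 and 42.0 FPKM. Hk3 was 48.8 to 71.8 FPKM in WT LSK. It was 161 to 219 in Bcor-/- (1.70 ± 0.19, limma adjusted p = 0.011) and 24.8 to 29.5 in Bcor-/-Dnmt3a-/- (-1.04 ± 0.19, adjusted p = 0.0036). In MEP it was 0.705 to 4.77 in WT and 12.1 to 18.5 in Bcor-/-Dnmt3a-/- (2.22 ± 0.64, adjusted p = 0.029). The LSK share of Eno1 in Eno1, Eno2 and Eno3 was 34.2% to 37.5% in WT and 18.4% and 15.6% in Bcor-/-Dnmt3a-/-.

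**Figure D4:**
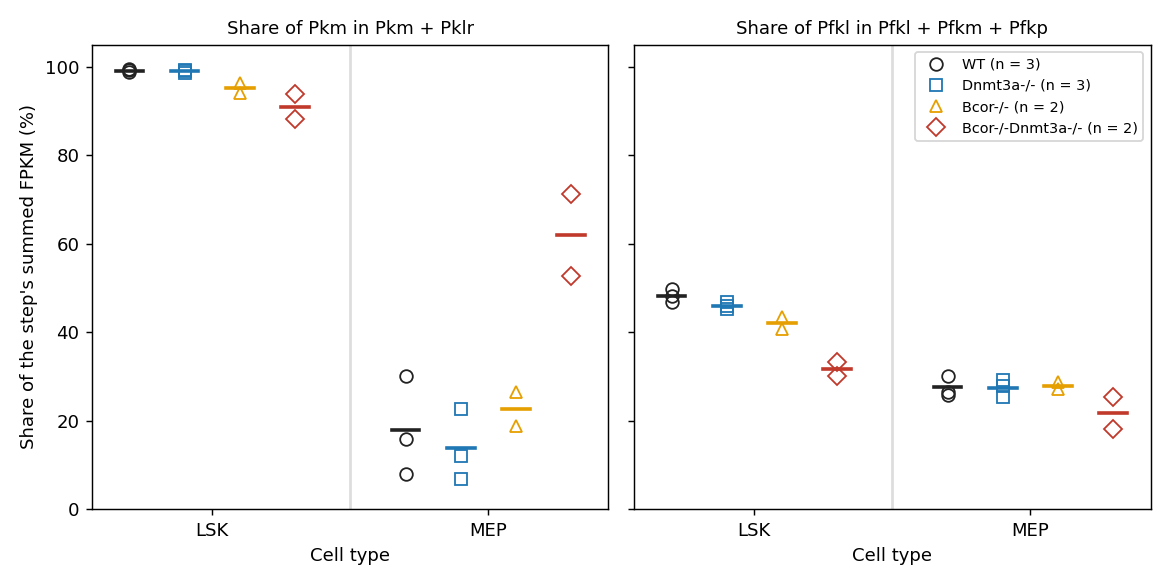
Share of Pkm in Pkm + Pklr (left) and of Pfkl in Pfkl + Pfkm + Pfkp (right), in percent of summed FPKM, by cell type and genotype. Symbols are libraries and bars group means. The Pkm share is 71.2% and 52.6% in Bcor-/-Dnmt3a-/- MEP libraries and at most 30.1% in every other MEP library.

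The remaining steps of glycolysis are triose phosphate isomerase and Gapdh. Tpi1, which interconverts the 2 triose phosphates, followed Pfkl. It was 252, 244 and 258 FPKM in WT LSK against 116 and 127 in Bcor-/-Dnmt3a-/- (a fall of 1.04 ± 0.10, adjusted p = 0.00019). In MEP it was 278, 302 and 256 against 140.5 and 151 (a fall of 0.93 ± 0.10, adjusted p = 0.00067). The groups were separate in both. Gapdh, at the low levels given above, did not pass (-0.11 ± 0.37 in LSK, -0.08 ± 0.24 in MEP).

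Around the enzymes, the lists of related genes did not share 1 direction. Bpgm, which diverts a glycolytic intermediate to 2,3-bisphosphoglycerate in red cells, rose in Bcor-/-Dnmt3a-/- LSK from 14.7 to 16.5 FPKM in WT to 43.5 and 169 (log2 fold change 2.37 ± 0.43, adjusted p = 0.0036). In MEP it was 11.9 to 15.7 in WT, 35.9 in replicate 1 and 1710.0 in replicate 2 (4.06 ± 1.23, adjusted p = 0.035), and replicate 2 is the library with the erythroid marker sum of 106605. Among 8 tested transporters of glucose and lactate in LSK, 2 were called higher and 1 lower, where 28.3% of all tested genes were called: the lactate carrier Slc16a1 rose (1.26 ± 0.20), as did Slc2a8 (0.66 ± 0.22, adjusted p = 0.055), and the carrier Slc16a7 fell (-1.57 ± 0.22). Of 7 tested in MEP, 4 were called higher and 1 lower (30.9% of all tested genes called). The lower one was Slc2a8 (-1.63 ± 0.17, adjusted p = 0.00062), opposite to LSK, and the higher ones included the glucose carrier Slc2a1 at 0.656 to 3.11 in WT against 6.10 and 10.4 in Bcor-/-Dnmt3a-/- (1.69 ± 0.47). G6pc3, a glucose 6-phosphatase that acts against hexokinase, fell in LSK (-0.83 ± 0.16) and in MEP (-1.08 ± 0.09).

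Regulators and hypoxia genes were mixed. In LSK, 2 of 9 tested regulators were called higher and 3 lower, where 28.3% of all tested genes were called. Meis1, a stem cell factor known to act on Hif1a, fell from 49.4 to 70.5 FPKM in WT to 0.930 and 7.53 (a fall of 3.88 ± 0.49). Egln3, a prolyl hydroxylase of HIF, also fell (-2.51 ± 0.41), as did Myc (-0.81 ± 0.13, adjusted p = 0.0016). Hif1a was higher in LSK by less than the fold threshold (0.56 ± 0.14, adjusted p = 0.018). In MEP 3 of 9 were called, all higher, a share near the 30.9% of all tested genes. Among them was Hif1a, with 6.17 to 9.37 in WT against 22.2 and 15.9 in Bcor-/-Dnmt3a-/- (1.13 ± 0.19, adjusted p = 0.0037). Of 12 tested hypoxia-induced genes in LSK, 2 were called higher and 2 lower (28.3% of all tested genes called): Adm rose from at most 0.180 FPKM to 4.2 and 19.1, and Ndrg1 fell from 93.2 to 103 to 11.7 and 21.7. In MEP 3 of 11 were called, all higher, a share near the 30.9% of all tested genes, among them Vegfa (0.91 ± 0.23).

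Routes that branch from or follow glycolysis were counted in the same way. In MEP, 8 of 16 TCA cycle genes were called in Bcor-/-Dnmt3a-/- against WT, all lower, where 12.4% of tested genes were called lower, with a median log2 fold change of -0.57 against 0.02 for all genes. Idh3a fell from 116 to 141 FPKM in WT to 62.2 and 73.3. Without WT replicate 2 the count was 5. The 12.4% of all tested genes stands for 1357 genes, and 2277 genes were called lower with quantile normalization. In LSK 1 of 16 was called, below the 28.3% of all tested genes. It was Suclg2, which went from 30.2 to 33.2 FPKM in WT to 17.1 and 16.0 (a fall of 0.90 ± 0.11). The pentose phosphate pathway, which branches off at glucose 6-phosphate, had 6 of 7 genes called higher in Bcor-/- LSK, where 7.2% of tested genes were called higher, and 5 with an adjusted p. Pgd was 159 and 245 FPKM against 56.8 to 85.4 in WT (1.57 ± 0.23), Rpia 89.4 and 121 against 46.4 to 55.5 (1.06 ± 0.14) and Taldo1 331 and 435 against 197 to 247 (0.82 ± 0.16). These 3 were chosen after their values were seen. In all 3, WT replicate 2 was the highest WT library, as it was for the granulocyte markers (13661 FPKM, against 3575 and 3576 in the other WT libraries and 18085 and 25771 in Bcor-/-, with the differing makeup given above), and the part of these cells in the change was not tested. WT replicate 2 was also the highest for G6pdx and Tkt. It was not for Rpe (16.1 FPKM, against 18.5 in WT replicate 3) or Pgls (87.4, the lowest WT library). In Bcor-/-Dnmt3a-/- LSK 0 of the 7 genes of this pathway were called by limma, against 28.3% of tested genes. Of the 7, Tkt alone had an unadjusted limma p under 0.05 (0.005), with a log2 fold change of -0.49 that was under the fold threshold. In Bcor-/- against WT MEP 0 of the 7 were called, where 2.76% of tested genes were. In Bcor-/-Dnmt3a-/- MEP 2 of 7 were called, a share near the 30.9% of all tested genes. Both were lower, Rpia (-0.81 ± 0.14) and Tkt (-0.69 ± 0.16).

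The genes whose pattern was most like the mean pattern of the enzymes, over 20 libraries centred within each cell type and among 10763 genes, were Acot7 (Pearson r = 0.908), Dtnbp1 (0.907), Mapkapk3 (0.884), Gng12 (0.875) and Adap1 (0.870). Acot7, an acyl-CoA thioesterase, was 79.2 to 94.8 FPKM in WT LSK against 18.5 and 29.4 in Bcor-/-Dnmt3a-/-. The points share genotypes, mice and composition, so these values are a description. The enzymes themselves were loosely tied: the correlation of each with the mean of the other 9 ran from -0.01 for Eno1 to 0.70 for Gpi1, with Hk2 at 0.63, Pgam1 at 0.56, Pkm at 0.10 and Hk1 at 0.10.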

How the data were processed

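RNA sequencing was analysed from 2 tables, 1 for LSK and 1 for MEP cells, in which the authors deposited FPKM values per gene for 10 libraries each. The submitters' processing notes name STAR 2.5.1b, SAMtools 1.9, Cufflinks 2.2.1 and the mouse build mm9. Read depth is not given with FPKM, so no counting error could be computed, and only relative depth was read from steps between low values. No count test was run.

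FPKM values were used as log2(FPKM + 1) after dropping genes whose mean within a cell type (10 libraries) was below 1, and fitted in limma 3.58.1 (R 4.3.3, two-sided moderated test with a mean-variance trend, 1 mean per genotype). Calls needed both p under 0.05 before adjustment and more than 1.5-fold change, as the study's methods set them. Benjamini-Hochberg adjusted p-values are over all tested genes. The difference of effects between cell types was tested on LSK minus MEP within each mouse, since the labels name the same mice in both tables. Shares of isozymes were compared by exact permutation tests (two-sided, in R). Figures were drawn in Python 3.11.15 with matplotlib 3.10.9. The limma p-values rest on 1 estimate per gene of the spread between libraries, shared by all 4 genotypes. The wider spread of the Bcor-/-Dnmt3a-/- pair therefore enters them only in part, except where each genotype was given its own variance. The script was tested on simulated data.

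All 10 enzymes are named in every comparison, and of each related list the called genes with the largest changes were eligible to be named. Myc, Hif1a and Hk3 in LSK were named outside this rule, after their values were seen. The enzymes, lists and tests were chosen with earlier results of these data known. Alternatives were the pseudocount, the filter, thresholds, scaling, replicate block, variance model, samples in the fit and leaving out each library. Positions, promoters and shared transcript stretches come from RefSeq or the annotation of GRCm38, which is not the build of the tables.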

Additional observations from a re-analysis of the deposited data

Results flagged for a closer look

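In Bcor-/-Dnmt3a-/- against WT, 3 enzymes had effects that differed between LSK and MEP cells by the limma test of the difference within each mouse. This share of the 10 was near the 28% of all tested genes called for the difference, and none of the 3 was called with 1 variance per genotype. The differences, as LSK minus MEP on the log2 scale, were -2.35 for Pkm, -1.37 for Hk2 and -1.06 for Pgam1. Both Pkm and Hk2 also passed with an adjusted p. Pgam1 did not, and its reads can be shared with pseudogenes.

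Eno1b, which is no member of the 10, had a signal in 4 Dnmt3a-/- libraries above its level in WT (at most 0.137 FPKM). It was 13.6 and 11.4 FPKM in LSK replicates 1 and 2, and 19.3 and 15.4 in MEP replicates 1 and 2. It was listed at 0 in replicate 3 of both cell types.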

How the results depend on the processing

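Counts of enzymes called depended on the fold threshold. Above a fold change of 2 the count was 0 of 10 in Bcor-/-Dnmt3a-/- against WT LSK, Bcor-/- against WT LSK, Dnmt3a-/- against WT LSK and Bcor-/-Dnmt3a-/- against Bcor-/- MEP, and 1 in Bcor-/-Dnmt3a-/- against Bcor-/- LSK and against WT MEP. With an adjusted p under 0.05 it was 1 in Bcor-/- and 0 in Dnmt3a-/- LSK. With a mean FPKM of at least 5 it was 0 in Dnmt3a-/- LSK and 1 for the difference between cell types, as fewer genes were tested. In Bcor-/- LSK it was 1 with quantile normalization and 2 with FPKM rescaled to TPM, an alternative chosen after seeing the data. It was 5 in Bcor-/-Dnmt3a-/- MEP with median centring. With 1 variance per genotype it was 1 in Bcor-/-Dnmt3a-/- LSK and 0 for the difference. The cause was not tested. Leaving out each library gave 2 to 6 calls in Bcor-/-Dnmt3a-/- LSK, 1 to 4 in Bcor-/- LSK, 0 to 1 in Dnmt3a-/- LSK, 5 to 8 in Bcor-/-Dnmt3a-/- against Bcor-/- LSK, 3 to 5 in both Bcor-/-Dnmt3a-/- comparisons in MEP and 2 to 6 for the difference.

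Deviations of same-numbered libraries correlated above 0.1 in 0 of 13 pairs in LSK and in 8 of 13 in MEP (-0.19 to 0.34). Not every pair did in either cell type, and the numbers were not taken to pair genotypes. The pairs are not all separate, since deviations within a group of 2 libraries mirror each other. Whether same-numbered MEP libraries share a batch was not tested. With the replicate block, 2 enzymes were called in Bcor-/- LSK and 4 in each Bcor-/-Dnmt3a-/- comparison in MEP, and Pgk1 in Bcor-/- MEP turned to -0.014. Without the mouse as block, the difference between cell types kept a count of 3.

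Over all fold changes and alternatives, 1811 kept direction and call, 78 lost and 31 gained the call, and 44 turned direction. With other settings than leaving out a library, the log2 values that turned were Ldha in Bcor-/- LSK (-0.051) and Dnmt3a-/- MEP (-0.046) and Hk2 (-0.15) and Pgam1 (-0.27) in Bcor-/-Dnmt3a-/- against Bcor-/- MEP with quantile normalization, Pgam1 there with median centring (-0.059) and TPM (-0.14), Gpi1 in Bcor-/-Dnmt3a-/- MEP with median centring (-0.038) and TPM (-0.11), and Eno1 with Eno1b in Dnmt3a-/- LSK (0.74) and MEP (0.50). The Pfkl difference between cell types was 0.0062 with a pseudocount of 0.1, 0.014 with quantile normalization, 0.064 with median centring and 0.030 with TPM. Without 1 library, values ranged in Bcor-/-Dnmt3a-/- against WT from -0.65 to 0.30 for Aldoa and -0.44 to 0.087 for Gpi1 in LSK and -0.94 to 0.35 for Hk1 in MEP. Against Bcor-/- in MEP they ranged from -0.56 to 0.20 for Eno1, -1.05 to 0.24 for Hk1 and -0.13 to 0.31 for Pgam1. For the difference they ranged from -0.52 to 1.01 for Eno1, -0.59 to 0.0032 for Gpi1, -0.51 to 0.75 for Hk1, -0.14 to 0.14 for Pfkl and -0.73 to 0.18 for Pgk1. In Bcor-/- they ranged from -0.024 to 0.39 for Hk2 in LSK and -0.040 to 0.16 for Pgk1 in MEP. In Dnmt3a-/- MEP they ranged from -1.07 to 0.012 for Eno1, -0.048 to 0.14 for Gpi1, -0.45 to 0.042 for Hk2 and -0.60 to 0.18 for Pkm, and in LSK from -0.12 to 0.021 for Pfkl and -0.13 to 0.032 for Pgam1.

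Scaling moved the split of all genes called. In Bcor-/-Dnmt3a-/- against WT MEP 2019 were higher and 1357 lower, against 1461 and 2277 with quantile normalization and 1565 and 2142 with median centring, and the median of all genes went from 0.02 to -0.17 and -0.14. In LSK 1793 were higher and 1590 lower, against 1565 and 1910 and 1536 and 1942. With FPKM rescaled to TPM the split was 1430 higher and 2377 lower in MEP, and 1369 and 2400 in LSK. TPM also moved it from 860 and 721 to 579 and 1286 in Bcor-/- against WT LSK. In Bcor-/-Dnmt3a-/- against Bcor-/- MEP it went from 1809 and 1236 to 1202 and 2377. The shares of tested genes called higher or lower given above are those of the main setting. The genes called for the difference ranged from 1426 to 3759 over settings other than leaving out a library.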
